A study of Mus musculus with 6 samples.

Results

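The 44 genes described here encode the machinery that copies the genome and divides the cell, and they were read in regulatory T cells (Treg cells) sorted from mouse spleen. They are a list of gene names, drawn up with earlier results of these data known, from 46078 gene identifiers in the deposited table: 23 act at the G1/S transition or in S phase, and 21 act in G2 or mitosis. All 44 were found by gene symbol. RNA sequencing was done on 6 libraries. The 3 libraries labelled MAZR-cKO came from C57BL/6 mice that carry floxed alleles of the gene for MAZR (MAZRf/f), CD4-cre and the DEREG reporter. The 3 wild type (WT) libraries came from C57BL/6 mice that carry the DEREG reporter, and no Cre is named for them. All mice were 6 to 8 weeks old and untreated as far as the labels say. DEREG is a transgene in which the regulatory sequence of Foxp3 drives a diphtheria toxin receptor fused to eGFP, so CD4+eGFP+ cells could be sorted. CD4-cre is active from the thymus onward in alpha-beta T cells at large, so the deletion it is meant to make is not limited to Treg cells. MAZR is the zinc finger factor encoded by Patz1, and the comparison asks which transcripts differ when it is deleted. The labels do not say how many mice gave each library.

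Before DNA is copied, the origin licensing factors Cdc6 and Cdt1 load the MCM2-7 ring onto chromatin. Cyclin E with Cdk2 and the E2F factors then open S phase, in which polymerases, clamp and nucleotide enzymes work, and cyclin A and cyclin B with Cdk1 drive mitosis. Resting T cells keep most of this programme low. Treg cells divide in normal spleen more often than other CD4+ T cells, so a sorted Treg population holds a mix of resting and cycling cells.

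The libraries held 15481565 to 28184456 reads and 17865 to 18785 detected genes, so that 1 read was worth 0.0347 to 0.0621 CPM, the deposited unit of reads scaled to a common library total. The rarest member, Cdc25c, rested on 22 to 52 reads per library. Foxp3 stood at 1313, 1365 and 1415 CPM in libraries labelled MAZR-cKO and at 1252, 1345 and 1371 CPM in WT. Cd4, the other defining gene of the sort, lay between 901 and 1019 CPM over the 6. Patz1 was at 177, 181 and 179 CPM in libraries labelled MAZR-cKO and at 71.6, 74.9 and 67.6 CPM in WT, higher where a deletion is labelled. A sum of reads over the gene does not show whether its floxed part is missing, so group names and directions here follow the labels. Summed CPM of Y-linked genes was 116, 0.480 and 199 in libraries labelled MAZR-cKO 1, 2 and 3, and 217, 164 and 276 in WT 1, 2 and 3, with Xist detected in all 6. The makeup by sex thus differed between libraries. The labels' descriptions give 1 code to both libraries of a replicate number, without saying what it stands for.

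Tested gene by gene, 0 of the 44 were called different between the genotypes (0.0415% of all genes were), while most of the mitotic ones were called different between the replicate numbers. Both libraries numbered 1 held more mitotic transcript than the other 4. The members' levels follow by role.

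The MCM2-7 ring is the core of the replicative helicase. Per kilobase of the principal coding transcript, Mcm2, Mcm3, Mcm4, Mcm5 and Mcm7 averaged 25.7 to 31.4 CPM in libraries labelled MAZR-cKO and 27.3 to 33.9 CPM in WT. Mcm6, a subunit of the same ring, averaged 52.2 ± 4.95 CPM per kilobase in libraries labelled MAZR-cKO and 58.3 ± 5.17 in WT (SD, n = 3 each). Per length of this transcript, its level was thus above that of the other 5 subunits in both genotypes. The merged exons of all transcripts measured 4666 bases for Mcm6, against 2910 for its principal transcript. For Mcm4 both lengths were 3589, so the size of the gap depends on the length used.

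In CPM not divided by length, Mcm6 stood at 166, 137 and 152 in libraries labelled MAZR-cKO 1, 2 and 3, and at 187, 158 and 165 in WT 1, 2 and 3. Mcm4 stood at 115, 109 and 113 CPM in libraries labelled MAZR-cKO and at 131, 111 and 123 CPM in WT. Mcm2 had 94.3, 86.3 and 93.5 CPM in libraries labelled MAZR-cKO and 103, 88.03 and 101 CPM in WT. For each of these subunits the ranges of the genotypes overlapped, and number 1 was the highest library of its genotype. Mcm5 reached 97.2, 75.7 and 88.1 CPM in libraries labelled MAZR-cKO and 115, 82.4 and 90.2 CPM in WT. Mcm3 read 89.6, 73.96 and 83.7 CPM in libraries labelled MAZR-cKO and 98.7, 72.5 and 84.9 CPM in WT. Mcm7 gave 82.03, 72.5 and 80.2 CPM in libraries labelled MAZR-cKO and 87.8, 74.4 and 80.5 CPM in WT. Number 2 was the lowest library of either genotype for all 6 subunits.

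Among the loading and firing factors, Cdc6, the ATPase that helps load the ring, had 8.70, 6.13 and 6.42 CPM in libraries labelled MAZR-cKO and 10.1, 5.54 and 7.33 CPM in WT. Mcm10, needed to activate the loaded helicase, had 10.00, 5.55 and 6.42 CPM in libraries labelled MAZR-cKO and 9.45, 5.21 and 6.38 CPM in WT. These were high in number 1 of each genotype. Cdt1, the partner of Cdc6, spread little, at 50.8, 49.01 and 49.2 CPM in libraries labelled MAZR-cKO and 50.9, 49.7 and 48.3 CPM in WT. Cdc45 and Gins2, which join the ring to form the active helicase, lay between 4.05 and 12.4 CPM in libraries labelled MAZR-cKO and between 5.203 and 11.5 CPM in WT.

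Of the DNA synthesis genes, Pcna, the sliding clamp, had the highest level per kilobase, and without that division stood at 83.9, 79.7 and 80.1 CPM in libraries labelled MAZR-cKO and 87.8, 83.5 and 78.4 CPM in WT. Rrm2, the regulated subunit of ribonucleotide reductase, had 41.1, 33.3 and 30.7 CPM in libraries labelled MAZR-cKO and 51.7, 33.4 and 43.8 CPM in WT. Tyms, which makes thymidylate, had 16.3, 12.4 and 12.1 CPM in libraries labelled MAZR-cKO and 21.4, 15.3 and 14.4 CPM in WT. Rrm2 and Tyms were lowest in the library labelled MAZR-cKO 3, but their genotype ranges overlapped. The other 5 of this role were Rrm1 (the large reductase subunit), Tk1 (thymidine kinase), Prim1 and Pola1 (primase and polymerase alpha) and Rfc4 (clamp loader). They averaged 11.2 to 61.5 CPM in libraries labelled MAZR-cKO and 11.6 to 67.2 CPM in WT.

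Of the regulators of S phase entry, E2f1 and both E-type cyclins were low per length, at 1.43 to 5.52 CPM per kilobase over the 6 libraries. E2f1, a transcription factor of replication genes, had 9.51, 5.97 and 7.63 CPM in libraries labelled MAZR-cKO and 10.2, 6.81 and 9.68 CPM in WT. Ccne2, an E-type cyclin, had 4.78, 3.63 and 3.54 CPM in libraries labelled MAZR-cKO and 5.23, 4.12 and 4.42 CPM in WT. Its relative Ccne1 averaged 10.8 ± 0.475 CPM in libraries labelled MAZR-cKO and 11.3 ± 0.743 CPM in WT (SD, n = 3 each). Cdk2, the kinase they activate, had 50.6, 57.4 and 58.8 CPM in libraries labelled MAZR-cKO and 60.99, 59.3 and 53.9 CPM in WT. It was the single member of the 44 not highest in number 1 of both genotypes.

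Top2a, the topoisomerase that untangles chromosomes before they part, had 124, 68.6 and 73.3 CPM in libraries labelled MAZR-cKO 1, 2 and 3, and 143, 71.95 and 88.1 CPM in WT 1, 2 and 3. Mki67, which coats mitotic chromosomes and is the usual marker of cycling cells, had 179.6, 120.5 and 115 CPM in libraries labelled MAZR-cKO and 191, 115 and 156 CPM in WT. In both genes the library of number 1 stood above its genotype's other libraries, and the genotypes overlapped. Per kilobase of the principal coding transcript they were, with Birc5, the highest G2/M members. For Birc5 that transcript has 947 bases, against 3402 for its merged exons. Top2a averaged 16.96 ± 5.87 CPM per kilobase in libraries labelled MAZR-cKO and 19.4 ± 7.17 in WT (SD, n = 3 each).

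Of the mitotic cyclins and kinases, Ccna2, the A-type cyclin, had 30.1, 15.3 and 16.2 CPM in libraries labelled MAZR-cKO and 38.4, 16.7 and 20.7 CPM in WT. Cdk1, its kinase partner in mitosis, had 12.2, 7.73 and 7.39 CPM in libraries labelled MAZR-cKO and 15.4, 7.41 and 10.2 CPM in WT. Ccna2 in number 1 was well above numbers 2 and 3 in both genotypes. The B-type cyclins Ccnb1 and Ccnb2, the phosphatase Cdc25c that activates Cdk1, and Cdc20 and Ube2c, which serve the ligase that ends mitosis, averaged 1.62 to 13.8 CPM in libraries labelled MAZR-cKO. In WT these 5 averaged 1.93 to 15.8 CPM.

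Spindle and kinetochore genes were all highest in number 1 of both genotypes, while the order of numbers 2 and 3 varied. Birc5, the survivin subunit of the chromosomal passenger complex, had 15.2, 10.3 and 10.9 CPM in libraries labelled MAZR-cKO and 21.03, 11.6 and 15.9 CPM in WT. Aurkb, the kinase of that complex, had 15.6, 9.65 and 8.98 CPM in libraries labelled MAZR-cKO and 19.8, 9.39 and 12.9 CPM in WT. Aurka, the related kinase of the spindle poles, had 8.39, 6.51 and 4.92 CPM in libraries labelled MAZR-cKO and 11.7, 5.93 and 6.94 CPM in WT. In WT the lowest of the 3 libraries was number 2 for each of these, while in libraries labelled MAZR-cKO it was number 3 for the aurora kinases and number 2 for Birc5. Bub1, a spindle checkpoint kinase, had 7.02, 3.73 and 4.54 CPM in libraries labelled MAZR-cKO and 9.80, 4.88 and 6.10 CPM in WT. Kif11, the motor that pushes spindle poles apart, had 38.2, 19.04 and 20.7 CPM in libraries labelled MAZR-cKO and 40.8, 21.2 and 24.7 CPM in WT. Both were highest in number 1 of each genotype. Cenpf, a kinetochore protein, had 18.6, 11.04 and 8.53 CPM in libraries labelled MAZR-cKO and 21.4, 9.001 and 13.8 CPM in WT. Nusap1, which bundles spindle microtubules, had 18.3, 9.12 and 10.3 CPM in libraries labelled MAZR-cKO and 20.5, 7.30 and 11.4 CPM in WT. Of all members, its ratio of number 1 to the mean of numbers 2 and 3 in WT was the highest. The remaining 5 were the checkpoint kinase gene Bub1b, the mitotic kinase gene Plk1, the motors Kif20a and Cenpe and the spindle assembly factor Tpx2. They lay between 7.91 and 24.6 CPM in libraries labelled MAZR-cKO and between 7.52 and 31.2 CPM in WT.

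**Figure D1:**
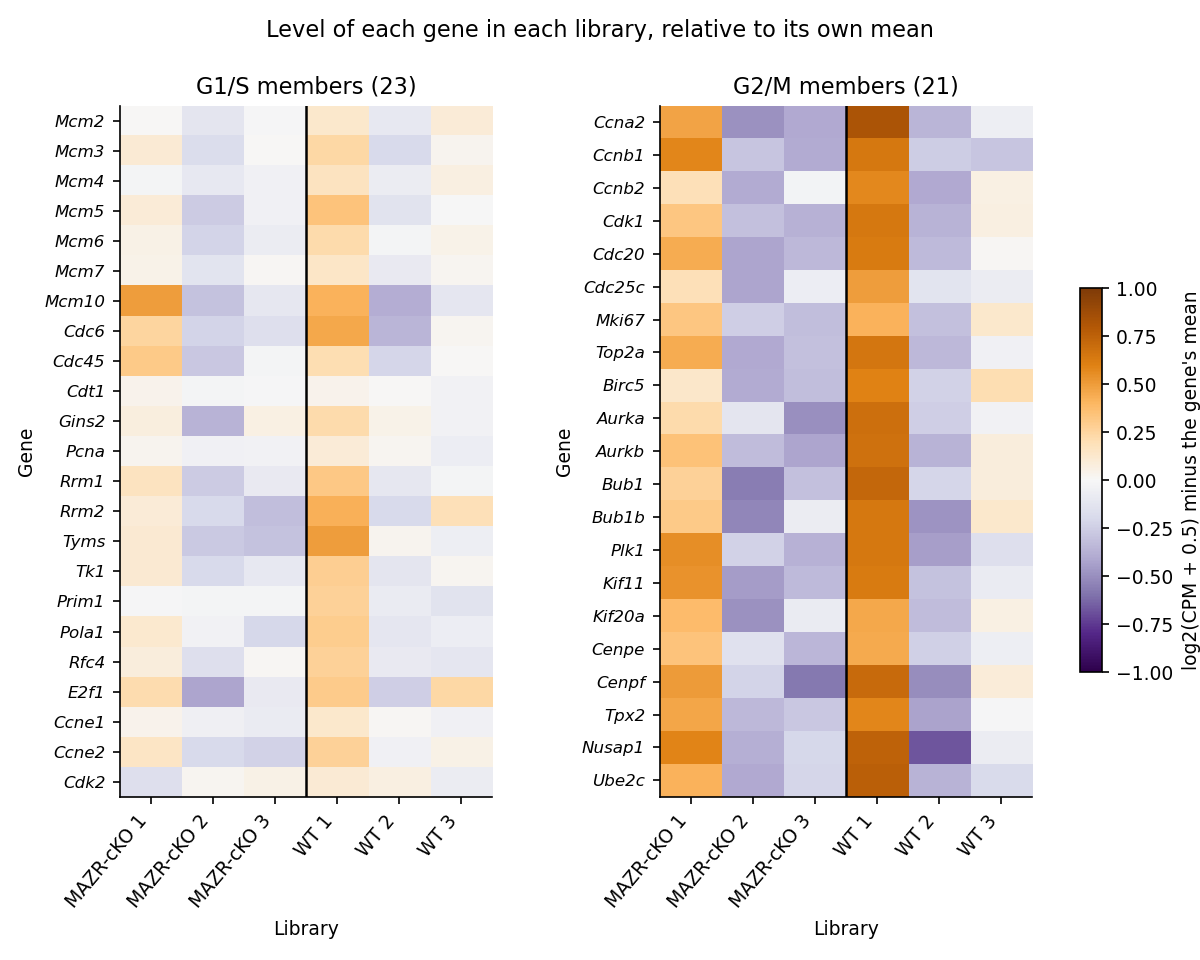
Level of each of the 44 members in each library, as log2(CPM + 0.5) minus the member's mean over the 6 libraries. Libraries labelled MAZR-cKO are left of WT, and G1/S and G2/M members are in separate panels. The columns of number 1 are the high ones in both genotypes, most clearly among the G2/M members.

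The difference between replicate numbers was tested for every gene with limma, an F-test of the replicate number with the genotype in the model on log2(CPM + 0.5). The test was chosen after the data had been seen. At an adjusted p under 0.05 it called 19 of the 21 G2/M members and 5 of the 23 G1/S members, against 3.36% of the 12040 genes tested. The G2/M members not called were Aurka (adjusted p = 0.0741) and Cdc25c (adjusted p = 0.301). The G1/S members called were the helicase genes Mcm3, Mcm5, Mcm6 and Mcm10 and the reductase gene Rrm1, with adjusted p of 0.00859 to 0.0460. Top2a had the lowest adjusted p of the members, at 4.3e-05, ahead of Kif11 at 0.000425 and Ccna2 at 0.000437. Of the 100 genes with the smallest p over the whole table, 9 were members, all of them G2/M. Genes of similar abundance, at 5 to 50 CPM, were called in 3.63% of 5284 cases.

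The calls rested on the libraries of number 1. With WT 1 left out, 4 of the 44 were called, beside 1.09% of all genes. With the library labelled MAZR-cKO 1 left out, 5 were called, beside 0.864% of all genes. With both left out 0 were called, where 1.15% of all genes were. Leaving out both libraries of number 2 left 19 called (2.2% of all genes), and of number 3, 32 (6.18%).

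Highest in number 1 were 43 of the 44 members in libraries labelled MAZR-cKO, beside 26.6% of all genes, and all 44 in WT, beside 30.3%. For 43 this held in both genotypes, as for 11.6% of all genes tested. As a ratio of CPM, number 1 over the mean of numbers 2 and 3, the G2/M members had a median of 1.697 in libraries labelled MAZR-cKO (range 1.33 to 2.09) and 1.77 in WT (1.40 to 2.19). For the G1/S members the median ratio was 1.17 in libraries labelled MAZR-cKO (0.871 to 1.67) and 1.249 in WT (1.04 to 1.63). Over all genes tested the median was 0.984 in libraries labelled MAZR-cKO and 0.993 in WT. The G2/M ranges of the genotypes overlapped over most of their width, and whether the genotypes differed in this ratio was not tested. Numbers 2 and 3 differed less evenly: number 3 was above number 2 for 13 of 21 G2/M members in libraries labelled MAZR-cKO and for 20 of 21 in WT. For G1/S members this held for 17 of 23 and 15 of 23. Over all 12040 genes tested it held for 6546 in libraries labelled MAZR-cKO and for 6147 in WT.

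**Figure D2:**
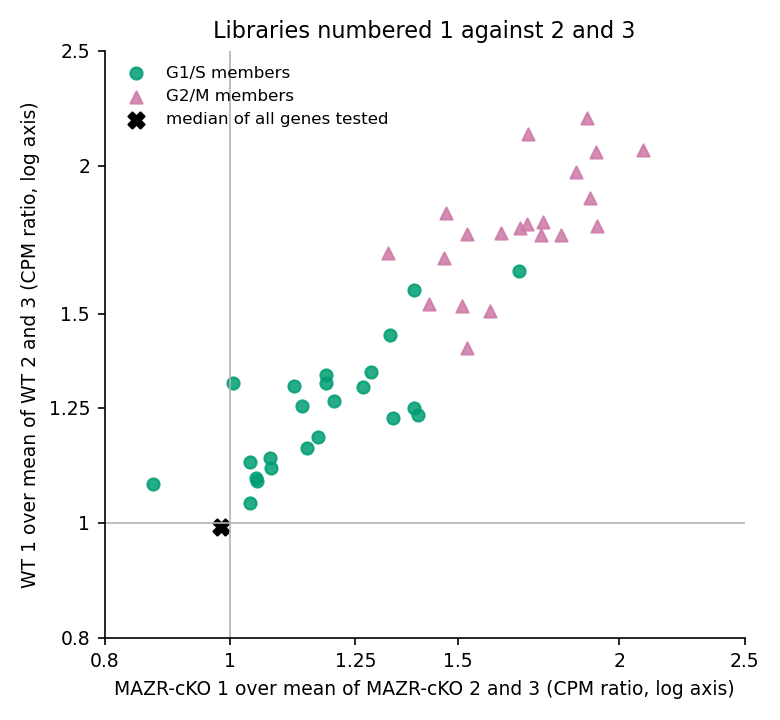
Each point is a member, placed by its CPM in replicate number 1 divided by the mean of numbers 2 and 3, in libraries labelled MAZR-cKO (horizontal log axis) and in WT (vertical log axis), with circles for G1/S, triangles for G2/M and a cross at the median of all genes tested. The G2/M members lie to the upper right, with medians of 1.697 in libraries labelled MAZR-cKO and 1.77 in WT, against G1/S medians of 1.17 and 1.249.

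Number 1 was the shallowest library of its genotype in libraries labelled MAZR-cKO, at 15481565 reads, and the deepest in WT, at 19148883 reads. Among marker genes of Treg cells and of other cells, the F-test also called Il2ra, Csf1r, Hbb-bs, Hba-a1, Gata1, Jchain and Klrb1c, and their part in the members' pattern was not tested. Csf1r, a receptor of myeloid cells, had 38.5, 25.3 and 9.71 CPM in libraries labelled MAZR-cKO and 31.4, 25.7 and 13.5 CPM in WT, so that number 1 was again the highest (F-test adjusted p = 0.000588). The globin gene Hbb-bs had 9.57, 7.25 and 4.54 CPM in libraries labelled MAZR-cKO and 24.2, 14.1 and 7.05 CPM in WT (adjusted p = 0.00449). Il2ra, the high affinity IL-2 receptor chain of Treg cells, was instead highest in number 3, at 854, 667 and 1037 CPM in libraries labelled MAZR-cKO and 909, 778 and 1089.5 CPM in WT (adjusted p = 0.00183). Germinal centre B cells, erythroid precursors, plasmablasts and immature thymocytes also divide, so their markers were summed. B and germinal centre markers summed to 1541, 1334 and 1234 CPM in libraries labelled MAZR-cKO and 1389, 1349 and 1331 CPM in WT. Nearly all of that was Ighm. Erythroid markers summed to 74.3, 60.1 and 75.4 CPM in libraries labelled MAZR-cKO and 93.1, 63.8 and 65.2 CPM in WT, most of it Gata1, with the erythroid factor gene Klf1 under 1 CPM. Of these sums, that of the B and germinal centre markers was highest in number 1 of both genotypes. Marker by marker, this held for 1 of 5 tested B and germinal centre genes. It held for 3 of 6 tested erythroid genes, and for 11.6% of all genes. Erythroid markers had a median ratio of number 1 to numbers 2 and 3 of 1.37 in libraries labelled MAZR-cKO and 2.60 in WT. B and germinal centre markers had medians of 1.26 and 0.853. Plasma cell markers summed to 104 to 125 CPM in libraries labelled MAZR-cKO and 103 to 121 CPM in WT. Myeloid markers summed to 114, 92.5 and 42.9 CPM in libraries labelled MAZR-cKO and 81.6, 72.01 and 71.3 CPM in WT. Markers of CD8 T cells and NK cells summed to 35.0, 29.3 and 26.7 CPM in libraries labelled MAZR-cKO and 29.6, 28.4 and 24.1 CPM in WT. The myeloid sum and that of CD8 and NK markers were also highest in number 1 of both genotypes. Marker by marker, this held for 2 of 6 tested myeloid and 1 of 4 tested CD8 and NK genes. Their median ratios were 1.53 and 1.33 in libraries labelled MAZR-cKO, and 1.06 and 1.05 in WT. Immature thymocyte markers summed to 2.19 to 2.24 CPM in libraries labelled MAZR-cKO and 1.29 to 2.41 CPM in WT, with Ptcra and Rag2 at 0 in most libraries. Treg markers summed to 6213 to 6652 CPM in libraries labelled MAZR-cKO and 6405 to 6748 CPM in WT, with number 3 the highest in both. Of the markers high enough to be tested, the F-test called 0 of 5 for B and germinal centre cells, 3 of 6 erythroid, 1 of 3 plasma cell, 1 of 6 myeloid, 1 of 4 CD8 and NK and 1 of 9 Treg markers. Of the thymocyte markers 1 was tested, and it was not called. Over all genes tested the F-test called 3.36%. In such bulk libraries, fewer cells of a type and less RNA per cell cannot be told apart.

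Between the genotypes, limma on log2(CPM + 0.5) called 0 of the 44 members at an adjusted p under 0.05, against 0.0415% of all genes in either direction. The adjusted p of the members ran from 0.914 to 0.999. At an unadjusted p under 0.05, 0 members were called. Of all genes, 2.92% were lower in libraries labelled MAZR-cKO by that rule, and 280 of the 12040 tested were higher. edgeR and DESeq2, run on whole reads recovered from the CPM values, also called 0 members, where they called 0.0386% and 0.241% of all genes. No member had genotype ranges that did not overlap, while 5.74% of all genes lay fully lower and 5% fully higher in libraries labelled MAZR-cKO.

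The estimates were small and mostly on the lower side in libraries labelled MAZR-cKO. They were below 0 for 20 of 23 G1/S members and 20 of 21 G2/M members, and for 56.1% of all genes tested. Their median log2 difference was -0.08 for G1/S, -0.18 for G2/M and -0.01 over all genes. The members vary together over the same 6 libraries, so they are not independent observations of the genotype. The 4 members with estimates above 0 were Mcm10 (0.06), Cdc45 (0.01), Cdt1 (0.00) and Nusap1 (0.00). Without WT 1 the G2/M median was 0.08, with 2 of 21 members lower, and leaving out any other library kept it below 0, between -0.40 and -0.03. The G1/S median without WT 1 was 0.00, with 11 of 23 lower. With the Y-linked sum as a covariate the G2/M median was -0.010, with 12 of 21 lower, and the G1/S median -0.02, with 15 of 23 lower. That sum was 0.480 CPM in the library labelled MAZR-cKO 2 and 116 to 276 CPM in the rest, so the covariate mostly sets that library apart. With that library left out instead, the G2/M median was -0.03, with 12 of 21 lower, and the G1/S median -0.04, with 16 of 23 lower. Whether the makeup by sex bears on the estimates was not tested.

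The largest estimates among the G1/S members were those of Tyms and Rrm2. Tyms differed by a log2 of -0.31 (SE 0.17, 95% interval -0.69 to 0.07) and Rrm2 by -0.28 (SE 0.16, -0.64 to 0.08). Mcm6 differed by -0.16 (SE 0.08, -0.34 to 0.03). Among the G2/M members, the checkpoint kinase Bub1 differed by -0.40 (SE 0.27, -1.02 to 0.22) and Birc5 by -0.38 (SE 0.21, -0.86 to 0.10). In this unblocked fit all of these intervals include 0, and those of the G2/M members, in which number 1 lies far from numbers 2 and 3, are the wider ones. Top2a had a difference of -0.18 and an unblocked interval of -0.79 to 0.43. The SD of log2(CPM + 0.5) within a genotype had a median of 0.19 for G1/S members, 0.48 for G2/M members and 0.10 for all genes. The median width on each side of the estimate was 0.29 for G1/S members, 0.62 for G2/M members and 0.19 for all genes.

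**Figure D3:**
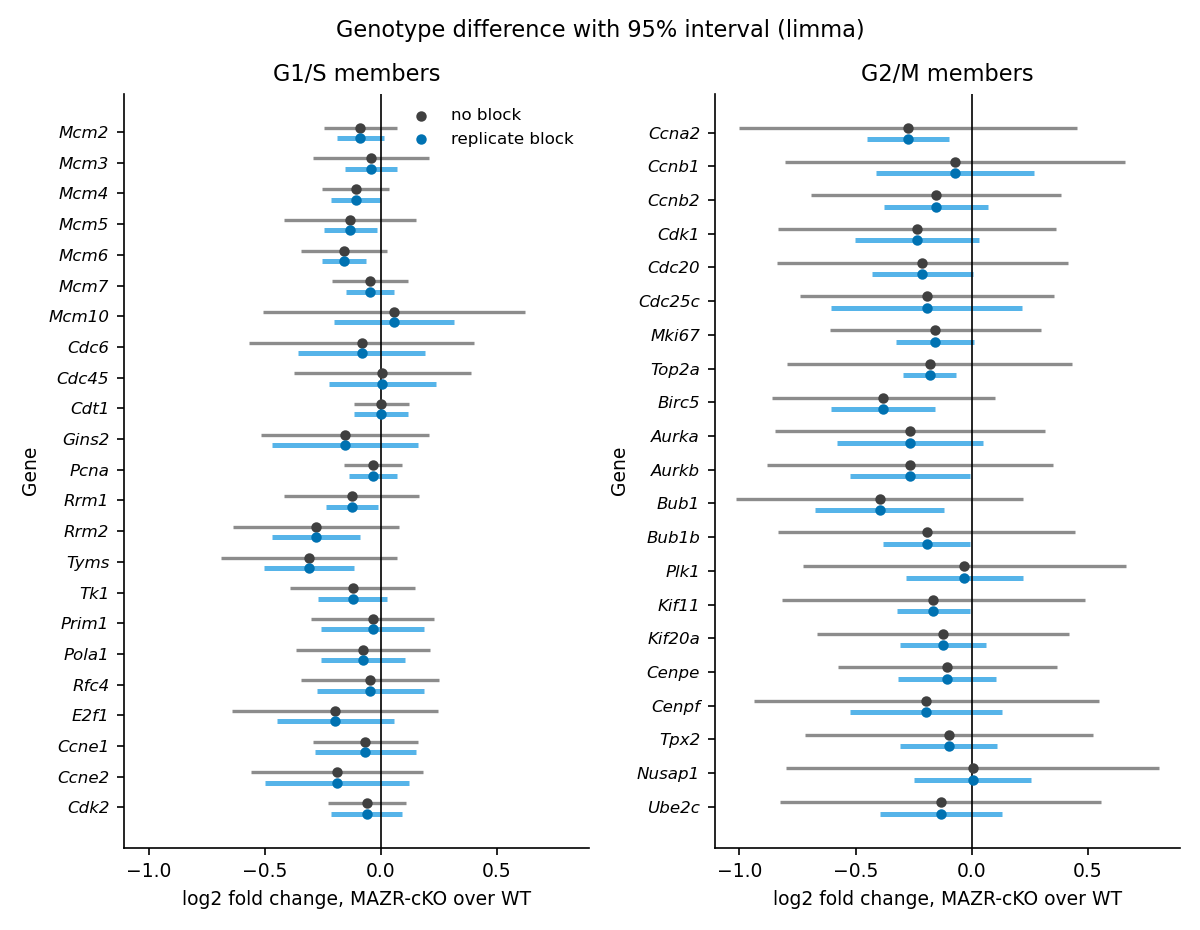
Log2 difference of each member, libraries labelled MAZR-cKO minus WT, with its 95% interval, from the fit without a block (grey) and from the fit blocked on the replicate number (blue). Every interval without the block includes 0, and the intervals of the G2/M members shrink most with the block.

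Blocking on the replicate number, the median SE of the G2/M members was 0.10 in place of 0.27, and that of the G1/S members 0.08 in place of 0.13. For all genes it was 0.07 in place of 0.08. Still 0 members were called, with adjusted p of 0.213 to 0.998, while the calls over all genes were 46 (0.382%, with 0.0831% lower) in place of 5. At an unadjusted p under 0.05, 13 members were lower with the block, 6 of G1/S and 7 of G2/M, where 6.66% of all genes were. No member was higher by that rule, where 479 of the 12040 genes tested were. Blocked intervals, which are not adjusted for the number of genes, ran from -0.29 to -0.07 for Top2a, from -0.50 to -0.11 for Tyms and from -0.47 to -0.09 for Rrm2. They lay below 0 for Mcm6, Bub1 and Birc5 as well.

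Set pair by pair, the library labelled MAZR-cKO was below WT of the same number for 21 of 23 G1/S and 21 of 21 G2/M members in pair 1, where 56.9% of all genes were. In pair 2 it was below for 18 of 23 and 11 of 21, beside 53.3% of all genes. In pair 3 it was below for 16 of 23 and 20 of 21, beside 51.4%. The G2/M members were thus nearly evenly split in pair 2, and their median log2 differences were -0.21, -0.03 and -0.26 in pairs 1, 2 and 3. Lower in all 3 pairs were 12 G1/S members and 10 G2/M members, where 19.2% of all genes were.

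The G2/M level was compared with the G1/S level within each library, as the mean log2(CPM + 0.5) over the members of each class. The G1/S mean was 4.91, 4.63 and 4.73 in libraries labelled MAZR-cKO 1, 2 and 3, and 5.06, 4.71 and 4.81 in WT 1, 2 and 3. The G2/M mean was 4.21, 3.47 and 3.53 in libraries labelled MAZR-cKO, and 4.46, 3.48 and 3.82 in WT. G2/M minus G1/S was therefore -0.70, -1.17 and -1.20 in libraries labelled MAZR-cKO, and -0.61, -1.22 and -0.99 in WT. The mitotic class thus stood closest to the replication class in number 1 of both genotypes. The group means of this difference were -1.02 ± 0.28 in libraries labelled MAZR-cKO and -0.94 ± 0.31 in WT (SD, n = 3 each). Libraries labelled MAZR-cKO minus WT came to -0.08 on the log2 scale, less than the spread within either genotype. It was 0.08 without WT 1, 0.0068 without the library labelled MAZR-cKO 3 and -0.011 without the library labelled MAZR-cKO 2. On the linear scale, summed CPM of G2/M over G1/S members was 0.566, 0.390 and 0.375 in libraries labelled MAZR-cKO and 0.579, 0.371 and 0.453 in WT.

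**Figure D4:**
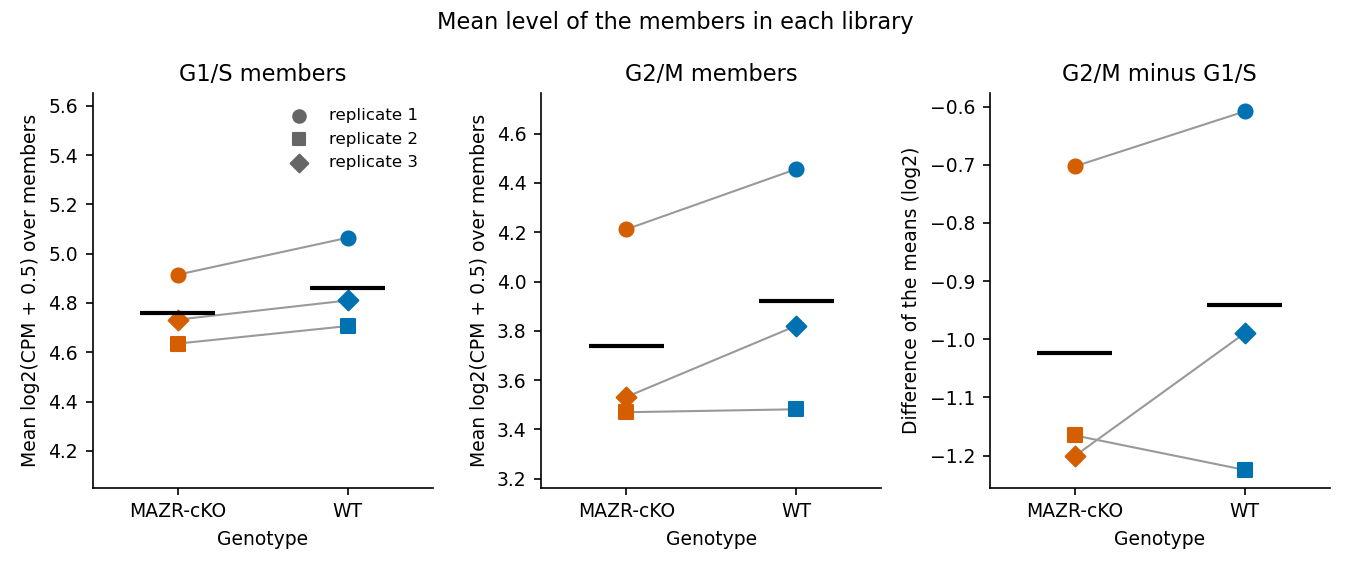
Mean log2(CPM + 0.5) of the G1/S members, of the G2/M members, and their difference in each library, with a symbol for each replicate number, grey lines joining libraries of the same number and a black bar at the group mean (n = 3), libraries labelled MAZR-cKO left of WT. Number 1 is the highest point in every column, and the genotypes overlap in each panel.

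The promoters of the 2 classes were read for the letters of the sites known to time each class. E2F sites serve genes of S phase entry. The cell cycle homology region (CHR), often with CCAAT boxes upstream, serves genes of G2 and mitosis. RefSeq promoters of the mouse build GRCm38.p6, from 250 bases before to 50 bases after a transcript start, were held for 36 of the 44 members, 20 of G1/S with 21 promoters and 16 of G2/M. Not found in that table were Aurkb, Gins2, Tpx2, Ccne2, Kif20a, Cdc25c, Mcm4 and Ccna2. Shown are, for each class, the members of smallest genotype p that held the motif. Capitals mark the E2F letters in Mcm6 and Mcm5, and the CHR and CCAAT letters in Bub1 and Aurka.
Mcm6, chr1:128359656-128359955, minus strand: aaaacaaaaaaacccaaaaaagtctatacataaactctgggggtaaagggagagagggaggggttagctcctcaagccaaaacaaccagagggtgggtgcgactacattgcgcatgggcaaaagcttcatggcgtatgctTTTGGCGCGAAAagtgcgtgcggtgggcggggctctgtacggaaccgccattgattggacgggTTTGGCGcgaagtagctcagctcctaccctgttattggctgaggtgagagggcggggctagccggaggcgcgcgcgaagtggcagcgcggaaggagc
Mcm5, chr8:75109259-75109558, plus strand: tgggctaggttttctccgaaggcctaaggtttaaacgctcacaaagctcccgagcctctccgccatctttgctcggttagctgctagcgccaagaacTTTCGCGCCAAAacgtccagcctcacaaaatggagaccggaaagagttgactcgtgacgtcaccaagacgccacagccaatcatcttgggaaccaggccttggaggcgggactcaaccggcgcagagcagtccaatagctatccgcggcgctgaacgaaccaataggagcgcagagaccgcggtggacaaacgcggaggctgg
Bub1, chr2:127831810-127832109, minus strand: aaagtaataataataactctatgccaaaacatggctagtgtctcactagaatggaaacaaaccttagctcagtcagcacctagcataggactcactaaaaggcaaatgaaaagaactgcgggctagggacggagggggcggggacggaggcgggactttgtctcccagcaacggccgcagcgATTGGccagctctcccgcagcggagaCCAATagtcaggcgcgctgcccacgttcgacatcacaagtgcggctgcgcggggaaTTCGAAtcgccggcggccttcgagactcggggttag
Aurka, chr2:172370521-172370820, minus strand: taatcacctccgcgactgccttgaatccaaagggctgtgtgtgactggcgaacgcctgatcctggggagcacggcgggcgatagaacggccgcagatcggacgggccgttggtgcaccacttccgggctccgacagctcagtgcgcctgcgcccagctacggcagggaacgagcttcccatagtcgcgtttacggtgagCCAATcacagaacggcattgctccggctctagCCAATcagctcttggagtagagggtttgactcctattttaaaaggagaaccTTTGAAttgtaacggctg

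The E2F letters searched, on either strand, were TTTGGCG, with TTTCCCG as a second spelling, TTTGCCG as another, and lastly TTTCGCG. Mcm6 holds TTTGGCG at 110 and at 47 bases before its start, the first overlapping a reverse match, CGCGAAA, at 105. Mcm5 holds TTTCGCG at 153 bases before its start, overlapping CGCCAAA at 148. The CHR letters searched were TTTGAA and TTCGAA, the second of which reads the same on both strands. Bub1 holds TTCGAA at 14 bases after its start, with CCAAT at 42 bases before and its reverse, ATTGG, at 68 bases before. Aurka holds TTTGAA at 32 bases after its start, with CCAAT at 51 and at 19 bases before.

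CHR letters were in 12 of the 16 G2/M promoters (75.0%), in 3 of the 21 G1/S promoters (14.3%) and in 19.2% of all 32851 promoters of the table. E2F letters were in 3 of 16 G2/M promoters (18.8%), in 9 of 21 G1/S promoters (42.9%) and in 6.7% of all. CCAAT was in 14 of 16 G2/M promoters (87.5%), in 14 of 21 G1/S promoters (66.7%) and in 37.4% of all. Promoters with both CHR and CCAAT letters were 12 of 16 for G2/M, 3 of 21 for G1/S and 7.52% of all. These are matches of letters in a fixed window, and no binding was measured. Whether they relate to the spread of the classes over the libraries was not tested. Top2a and Mki67 have CHR and CCAAT letters, while Birc5 and Nusap1 have E2F letters and no CHR.

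**Figure D5:**
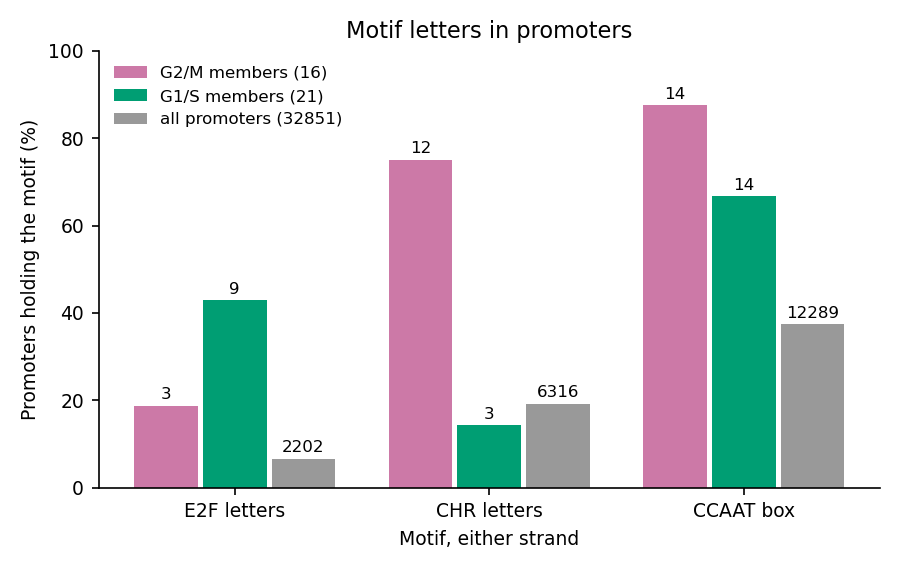
Percent of promoters that hold the E2F, CHR or CCAAT letters on either strand, for the G2/M members, the G1/S members and all RefSeq promoters of the table. CHR is at 75.0% in G2/M against 14.3% in G1/S, and E2F at 18.8% against 42.9%.

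Other genes of the same phases, from lists of known cell cycle genes, were read beside the members. Of 41 related G1/S genes, 0 were called between genotypes, with or without the block, and their median log2 difference was -0.08. The smallest p was that of E2f7, an E2F repressor, at 4.60, 2.51 and 3.78 CPM in libraries labelled MAZR-cKO and 6.70, 4.45 and 6.15 CPM in WT (log2 difference -0.62, SE 0.22, limma adjusted p = 0.914). Dut, which keeps uracil out of DNA, had 29.6, 27.1 and 33.7 CPM in libraries labelled MAZR-cKO and 35.9, 34.2 and 34.5 CPM in WT. Orc1, of the origin recognition complex, had 1.93, 1.44 and 1.63 CPM in libraries labelled MAZR-cKO and 2.59, 1.92 and 2.57 CPM in WT. Of these, Dut alone had ranges that did not overlap. It was the 1 gene of the 41 to lie fully lower in libraries labelled MAZR-cKO, where 5.74% of all genes did.

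Of 43 related G2/M genes, 42 were tested and 0 were called between genotypes, with a median of -0.13. Anln, a scaffold of the cleavage furrow, had 6.65, 3.95 and 4.47 CPM in libraries labelled MAZR-cKO and 8.89, 5.38 and 7.61 CPM in WT. Racgap1, of the central spindle, had 44.1, 34.2 and 34.2 CPM in libraries labelled MAZR-cKO and 52.7, 38.6 and 43.8 CPM in WT. Pttg1, the securin that holds back chromosome separation, had 36.8, 39.8 and 37.9 CPM in libraries labelled MAZR-cKO and 31.6, 39.5 and 33.1 CPM in WT, the single one of these with a higher estimate (0.14). By replicate number, the F-test called 24 of the 42 related G2/M genes and 7 of the 41 related G1/S genes. Of all genes tested it called 3.36%.

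Genes that start or brake the cycle were read as well. Of 20, among them D-type cyclins, their kinases, the RB family and CDK inhibitors, 17 were tested. Between genotypes 0 were called (median -0.04). By replicate number 1 was called, Myc, a transcription factor of growing cells, beside 3.36% of all genes. Rbl2, the RB relative p130 of resting cells, had 323, 340.3 and 289.8 CPM in libraries labelled MAZR-cKO and 356, 367 and 357 CPM in WT (log2 difference -0.18, limma adjusted p = 0.914). Ccnd2, a D-type cyclin, had 810.0, 696 and 884 CPM in libraries labelled MAZR-cKO and 876, 883 and 1023 CPM in WT. Cdkn2c, an inhibitor of Cdk4 and Cdk6, had 20.4, 14.6 and 14.9 CPM in libraries labelled MAZR-cKO and 22.2, 19.3 and 19.1 CPM in WT. Rbl2 ranges did not overlap, those of Ccnd2 and Cdkn2c did. Fully lower in libraries labelled MAZR-cKO were 2 of the 17 tested, where 5.74% of all genes were.

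Some members share sequence with other loci. Near-identical copies, at 95% identity or more over at least 200 bases, were found in the annotation for Ccnb1, Cdc6, Mcm7, Pcna, Rrm2 and Mki67, and Tyms holds a repeat shared with many transcripts. How reads were split among copies is not given in the sources used here, so the levels of these 7 are uncertain to that extent. The library kit keeps strand, but the strand setting of the counting is not given. Exons of Mcm7, Cdc45, Gins2, Tk1, Rfc4, Ccne2, Ccna2, Cdk2, Cdc20, Cdc25c, Kif20a, Nusap1, Ube2c and Plk1 overlap those of a gene on the other strand, and reads from such partners cannot be told apart.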

How the data were processed

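Poly(A) RNA of 6 libraries was sequenced (sorted cells, a stranded mRNA kit, per the labels' protocols). The authors deposited a table of CPM values (reads scaled to a common total) for 46078 Ensembl identifiers. Per the submitters' processing notes, FastQC, STAR 2.5.2b, Subread 1.5.1, R 3.4, edgeR and mm10 were used, in roles not given. Columns sum to 96.2 to 99.2% of the unit's nominal total. Every value was a whole multiple of 1 read within 0.01 reads (100% of values), so whole reads were recovered. Precision covers counting and library spread only.

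Genotypes were compared in R 4.3.3 by limma 3.58.1, whose prior variance followed the mean of log2(CPM + 0.5), over the 12040 genes at 1 CPM or more in at least 3 libraries, all 44 members among them. The 5 calls over all genes use Benjamini-Hochberg adjusted p under 0.05. Fold changes on this scale understate changes of low genes. edgeR 4.0.16 (quasi-likelihood, TMM) and DESeq2 1.42.0 on recovered reads, other pseudocounts, filters and scalings, a Y-linked covariate and left-out libraries were alternatives, and a simulated table was checked first. An F-test of the replicate number was added after the data were seen. Replicate numbers pair the libraries: the labels give each number 1 shared code, and deviations of same-numbered libraries correlated at 0.399, 0.381 and 0.379 across genes. P-values measure the spread between libraries, which the labels do not tie to separate animals. No libraries agreed within sampling noise.

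Members and lists were chosen with earlier results of these data known. Named with values in every library were, per class, the 6 members of smallest p, the 3 of highest mean, the 3 of largest SD and the MCM2-7 ring. Cdt1, Pcna, Cdk2 and the marker genes called by replicate number were added after their values were seen. From each related list the 3 genes of smallest p were named. Gene models are those of GENCODE M21, promoters those of RefSeq for GRCm38.p6, and copies were sought with BLAST 2.17.0. Single values of some marker genes are not reported here.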

Additional observations from a re-analysis of the deposited data

How the results depend on the processing

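The count of members called between genotypes was 0 in each of the 11 alternatives and with each library left out, and no related list gained a call. Calls over all genes were 5, against 33 with DESeq2, 46 with the replicate block in limma, 46 with the replicate block in edgeR and 4 to 14 with a library left out. The replicate block changed no call of a member. The median log2 difference ran over left-out libraries from -0.16 to 0.00 for G1/S members and from -0.40 to 0.08 for G2/M members, above 0 for G2/M without WT 1, and was -0.022 and -0.010 with the Y-linked covariate. That covariate mostly sets the library labelled MAZR-cKO 2 apart from the rest. The G2/M minus G1/S difference ran from -0.24 to 0.08, above 0 without WT 1 and without the library labelled MAZR-cKO 3, and was not computed for the blocked fits or the covariate. Of 390 alternative values for the 23 named members (Ccne2 missed the filter at 5 CPM), 361 kept the sign and 29 turned it, none past the threshold, and the cause was not tested. Nusap1, at 0.0042, was -0.055 with edgeR, -0.044 with DESeq2 and -0.0080 with the edgeR replicate block. With the Y-linked covariate Cdc6 was 0.021, Kif11 0.034, Mcm3 0.051 and Mcm7 0.020. Over left-out libraries the log2 difference ran from -0.18 to 0.28 for Mcm10, -0.28 to 0.12 for Cdc6, -0.15 to 0.067 for Mcm3, -0.23 to 0.0052 for Mcm5 and -0.10 to 0.014 for Mcm7. It ran from -0.45 to 0.010 for Aurka, -0.51 to 0.0065 for Aurkb, -0.48 to 0.030 for Cdk1, -0.58 to 0.068 for Ccna2, -0.36 to 0.012 for Mki67, -0.45 to 0.10 for Top2a, -0.47 to 0.11 for Kif11, -0.33 to 0.38 for Nusap1 and -0.50 to 0.11 for Cenpf. All of these upper ends came without WT 1. Of the members differing between replicate numbers, 24 were called, 16 to 25 under other tools, pseudocounts, filters and scalings (1.84 to 3.44% of all genes), 4 to 30 with a library left out (0.864 to 8.94% of all genes), and 0, 19 and 32 with both libraries of number 1, 2 or 3 left out. Without the block, the interval of a G2/M member reached a median of 0.62 on either side of its estimate, and its SE was 0.27, against 0.10 with the block.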
